A study of Homo sapiens with 6 samples.

Results

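The G1/S control and DNA replication genes are 59 genes that decide whether a cell leaves G1 and that copy its DNA afterwards. They were taken by gene symbol from the deposited table and all 59 were found, among 24489 rows. By role they form 18 genes of G1 control (cyclins, their kinases and inhibitors, pocket proteins and E2F factors), 18 genes of origin licensing and the replicative helicase, 18 genes of the replication fork, and 5 genes of histone mRNA processing and nucleotide supply. The study profiled LN229, an established human glioblastoma line, by RNA-seq of total RNA. One group, with 3 libraries, was transduced with vector, and the other, with 3 libraries, was transduced to overexpress LACTB, which encodes a mitochondrial serine beta-lactamase-like protein. Both groups are this 1 line, so the line's own lesions are shared, and the labels give no time after transduction, no selection and no clone. Whether the 3 libraries of each kind stem from independent cultures is not stated, so the p-values describe spread among these libraries and that spread may be technical.

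As background, D-type cyclins with CDK4 or CDK6, and then cyclin E with CDK2, phosphorylate RB1 and its relatives, which releases E2F factors to transcribe the genes of S phase. In G1 the origin recognition complex, CDC6 and CDT1 load the MCM helicase onto DNA, and geminin blocks reloading later in the cycle. When S phase starts, CDC45 and the GINS complex activate the helicase, and polymerases, the sliding clamp PCNA and its loader RFC copy the strands with deoxynucleotides supplied by ribonucleotide reductase, thymidylate synthase and thymidine kinase. Loss of G1 control is frequent in glioblastoma.

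Each value is a normalized read count per gene and library. Column totals ranged from 34907394 to 41384595 and were lower in each LACTB library than in any vector library, and the number of reads behind them is unknown. LACTB itself stood at 458, 515 and 393 normalized counts in vector and 4268, 4078 and 4203 in LACTB libraries (log2 difference 3.21, SE 0.13, adjusted p = 2.93e-14). Glial and glioma markers (8 genes) summed to between 93205 and 99840 in all libraries, with 4 higher and 3 lower, and the astrocyte marker GFAP was low, at 75.7, 75.6 and 72.3 in vector and 119.8, 119 and 126 in LACTB libraries (higher, 0.70, adjusted p = 0.0165). Of 7 melanocytic markers, SOX10 stood between 40669 and 59364 and the sum was lower with LACTB (41270 to 43336 against 48664 to 62480). The 4 tested ones were called lower, namely SOX10 (log2 difference -0.31, called in 8 of 16 alternatives), MITF (-1.49), PMEL (-1.91) and DCT (-5.09). The mean of DCT was 1776 in vector and 57.7 in LACTB cells, and that of MITF 1369 and 485. MLANA, TYR and TYRP1 were untested and stayed at or below 40.6. TYR was at 17.3, 40.6 and 25.6 in vector and 0 in every LACTB library. TYRP1 lay higher in every LACTB library, and MLANA overlapped between groups. The haematopoietic markers PTPRC, AIF1 and CD3E stayed at or below 14.6, and CD68 was tested and rose. Endothelial markers (4 genes) summed to 234 to 291 in vector and 163 to 191 in LACTB libraries, where neither of the 2 tested genes was called and KDR, untested, was at 72.4, 79.8 and 57.6 and then 1.57, 1.55 and 11.5. Fibroblast markers (5 genes) summed to 838 to 1146 and 1576 to 1688 but moved both ways, with LUM and COL1A1 higher and COL1A2 and DCN lower. The 2 proliferation markers, MKI67 and TOP2A, summed to 4549 to 5496 in vector and 11023 to 13568 in LACTB libraries. These marker levels moved with the groups, and their part in the members' results was not tested. In a bulk sample a change in the share of cells that are in S phase cannot be told apart from a change of transcripts per cell.

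With LACTB, 8 of 16 tested genes of G1 control, 9 of 18 of the fork and 2 of 18 of licensing and the helicase rose, but the differing counts between roles depended on the scaling. Values were compared as log2(value + 1) with limma over all genes at an adjusted p below 0.05. Of the 59 genes, 57 reached the minimum mean level and were tested. With LACTB 21 of these 57 were higher, against a background of 27.4% of all 12942 tested genes, and 3 were lower, against 24.5%. In either direction 24 of the 57 (42.1%) passed, against 51.9% of all tested genes, and the median log2 difference was 0.22, against 0.046 over all tested genes. All 3 LACTB libraries lay above all 3 vector libraries for 27 members (background 31.1%) and below them for 4 (background 28.7%). Of the 21 risers 3 reached 2-fold, against 820 of 3543 risers over all tested genes. No faller reached 2-fold, against 580 of 3177 fallers over all tested genes. Of the 21 risers 9 stayed under 1.5-fold, for which no share over all genes was taken. Without LACTB library 2, or without LACTB library 3, 1 member was called lower instead of 3. Over all tested genes 2535 and 2572 were lower in these refits, instead of 3177. The deposited totals differed between groups, and the split of calls depended on the scaling. With every column scaled to 1 total, which moved the median of all genes to 0.24, 36 members were higher and 1 lower (background 38.5% and 14.7%). With every library centred on its median, which moved it to -0.087, 15 were higher and 7 lower (background 20.7% and 32.0%). Quantile normalization gave 27 higher and 2 lower (background 24.8% and 25.5%). The licensing and helicase genes called in either direction numbered 11 of 18 with equal totals and 9 of 18 with quantile normalization, against 11 and 7 of 16 G1 control genes and 13 and 10 of 18 fork genes. Over all tested genes 53.2% and 50.3% were called in these 2 settings.

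**Figure D1:**
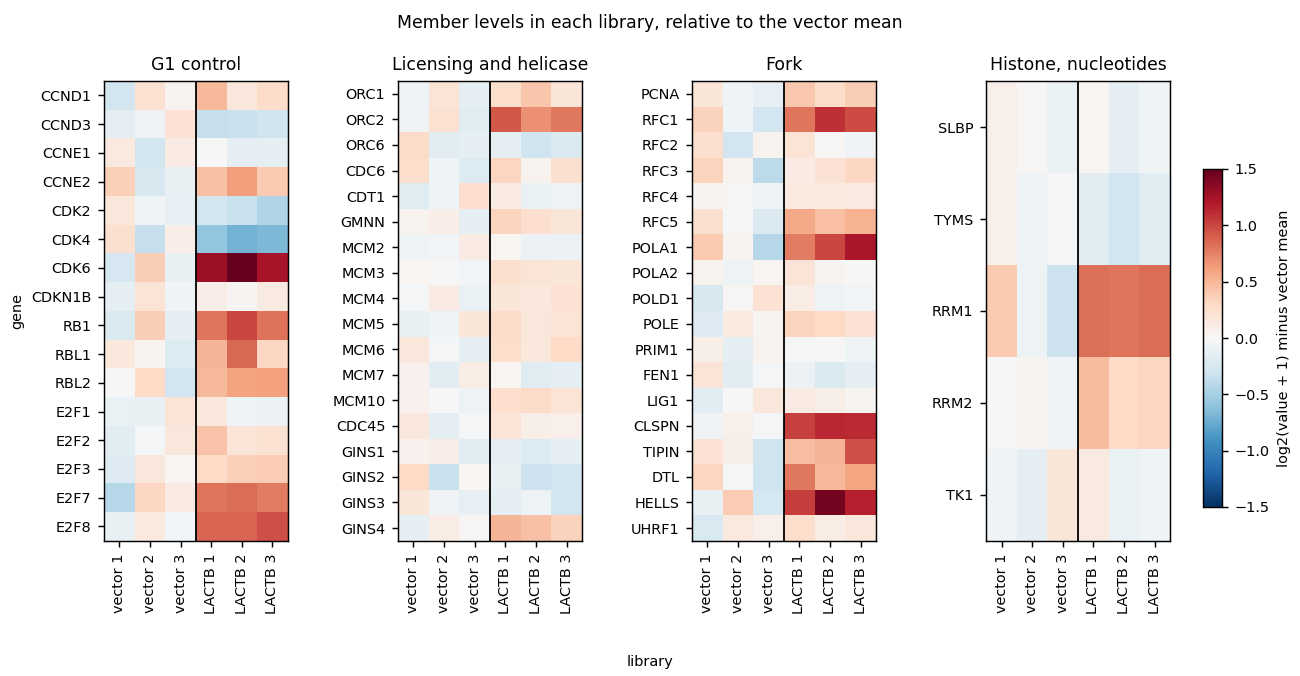
Each row is one of the 57 tested members, each column a library, and colour is log2(value + 1) minus that gene's mean over the 3 vector libraries, from -1.5 (blue) to 1.5 (red), in 4 panels by role. CDK6, ORC2, RFC1, POLA1, CLSPN, HELLS and RRM1 are red in all 3 LACTB columns, CDK4 is blue in all 3, and most licensing rows are pale.

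Among the G1 kinases the 2 partners of D-type cyclins went in opposite directions. CDK6 (chromosome 7, 92604921 to 92836594, minus strand, GRCh38 here and below) held 334, 516 and 369 normalized counts in vector and 974, 1169.6 and 942 in LACTB cells. All 3 LACTB libraries lay above all vector libraries, at a 2.53-fold higher mean (406 ± 96.6 to 1028 ± 123, SD, n = 3 each; log2 difference 1.36, SE 0.16, adjusted p = 7.38e-07). CDK4 (chromosome 12, 57747727 to 57756013, minus strand) held 35417, 23714 and 32293 in vector and 20047, 18451 and 18762 in LACTB cells. The groups did not overlap, vector library 2 lay nearest to the LACTB values, and CDK4 fell (log2 difference -0.66, SE 0.13, adjusted p = 0.000302). Per kb of the longest transcript, CDK4 nevertheless remained far more abundant than CDK6, with levels of 14679.5 ± 2919 against 34.99 ± 8.32 in vector and 9194 ± 408 against 88.6 ± 10.6 in LACTB cells. The ratio of the 2 per-kb levels was 593, 257 and 489 with vector but 115, 88.2 and 111 with LACTB, without overlap. Both calls held in all 16 alternatives, with sizes of 0.68 for CDK6 and -0.32 for CDK4 once transcript length and GC content were removed, and -0.33 for CDK4 with quantile normalization. CDK4 shares exon bases with TSPAN31 on the other strand and has 1 pseudogene named after it, and CDK6 shares exon bases with AC002454.1. CDK2, the partner of cyclin E (chromosome 12, 55966769 to 55972784, plus strand), fell by 0.35 on the log2 scale (SE 0.12, adjusted p = 0.0147). CDK2 lost its call without LACTB library 2 (-0.36, adjusted p = 0.0517) and without LACTB library 3 (-0.30, adjusted p = 0.103), with equal column totals (adjusted p = 0.245), with quantile normalization (0.0547) and after removal of length and GC (-0.10, adjusted p = 0.374). CDK2 also shares exon bases with PMEL on the other strand, and PMEL stood at 340.1, 414 and 393 in vector and 109, 101 and 92.2 in LACTB cells, so reads of the 2 genes cannot be told apart without a known strand setting.

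Of the 2 tested D-type cyclins, CCND1 rose and CCND3 fell, both by under 1.5-fold. CCND1 (chromosome 11, 69641087 to 69654474, plus strand), held 8871, 12578 and 11206 in vector and 15114, 12089 and 13073 in LACTB cells. Vector library 2 lay above the lowest LACTB library, and the rise stood at the threshold (log2 difference 0.31, SE 0.13, adjusted p = 0.0488). CCND1 was not called without vector library 1 (0.17, adjusted p = 0.168), vector library 3 (0.34, adjusted p = 0.0953), LACTB library 1 (0.22, adjusted p = 0.234) or LACTB library 3 (0.33, adjusted p = 0.0863), after median centring (0.18, adjusted p = 0.296) or with limma's plain settings (adjusted p = 0.14). CCND3 (chromosome 6, 41934933 to 42050357, minus strand) held 4546, 4747 and 5812 with vector and 3937, 3985 and 4075 with LACTB, without overlap, and fell by 0.32 (SE 0.12, adjusted p = 0.0226). The fall of CCND3 was called in 8 of 16 alternatives. It was not called with equal column totals (adjusted p = 0.317), quantile normalization (0.17) or limma's plain settings (0.0688), without vector library 3 (-0.22, adjusted p = 0.0852) or without LACTB library 1 (-0.31, adjusted p = 0.0767), 2 (-0.32, adjusted p = 0.0805) or 3 (-0.34, adjusted p = 0.0648), and the sign turned after removal of length and GC (0.021, adjusted p = 0.841). Per kb, CCND1 (2527 ± 435) and CCND3 (2103 ± 284) overlapped in vector cells and did not in LACTB cells (3117 ± 358 and 1670.4 ± 29.3). CCND2 was too low to test, at 7.39, 0.118 and 7.38 in vector and 1.65, 3.47 and 4.21 in LACTB libraries. For cyclin E, CCNE1 (chromosome 19, 29811898 to 29824308, plus strand) held 1041, 779 and 1026 with vector and 943, 853 and 849 with LACTB, with overlapping groups and no call (log2 difference -0.10, SE 0.14, adjusted p = 0.588). CCNE2 had a difference of 0.49 (SE 0.22, adjusted p = 0.0646), with all LACTB libraries above all vector libraries, and passed without vector library 1 (0.67, adjusted p = 0.012), at equal column totals (0.68, adjusted p = 0.0152) and under limma's plain settings (adjusted p = 0.0435).

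Of the CDK inhibitors, neither listed gene was called. With overlapping groups, CDKN1B, encoding p27 (chromosome 12, 12715058 to 12722371, plus strand), held 1365, 1745 and 1460.0 in vector and 1619.9, 1562 and 1666 in LACTB cells (log2 difference 0.092, SE 0.12, adjusted p = 0.548). CDKN2C, an INK4 inhibitor of CDK4 and CDK6, was untested at 0.0320, 0.0530 and 6.25 with vector and 1.81, 0 and 0.00900 with LACTB. Outside the list, CDKN1A, encoding p21, held 11757, 10416 and 12549.9 with vector and 8500.2, 7586 and 7664 with LACTB and fell by 0.55 (SE 0.11, adjusted p = 0.000395), a call lost after removal of length and GC (-0.16, adjusted p = 0.0697). CDKN2A, a locus that LN229 is described as lacking, stayed at or below 2.08 in all 6 libraries and was untested.

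All 3 pocket proteins, the repressors that hold E2F in check, rose. RB1 (chromosome 13, 48303726 to 48599436, plus strand) held 606, 907 and 634 normalized counts in vector and 1226, 1409 and 1237 in LACTB cells, each LACTB library above each vector library (log2 difference 0.87, SE 0.15, adjusted p = 5.6e-05). RBL1, encoding p107, rose by 0.56 (SE 0.16, adjusted p = 0.00652), and RBL2, encoding p130, by 0.57 (SE 0.15, adjusted p = 0.00274). RB1 held in all 16 alternatives, and its difference was 0.49 after removal of length and GC. In that setting RBL1 (0.12, adjusted p = 0.434) and RBL2 (0.27, adjusted p = 0.0611) were not called. RBL1 was also lost without LACTB library 2 (0.41, adjusted p = 0.0851) and with quantile normalization (adjusted p = 0.0537).

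Within the E2F family the 2 atypical repressors rose and E2F1 did not pass. E2F8 (chromosome 11, 19224063 to 19241620, minus strand) held 344, 409.8 and 362 in vector and 682, 679 and 729 in LACTB cells, a 1.87-fold higher mean without overlap (log2 difference 0.91, SE 0.15, adjusted p = 3.62e-05). E2F7, the other atypical member, which binds DNA without a DP partner, rose by 0.81 (SE 0.16, adjusted p = 0.000341). Both were called in all 16 alternatives, with E2F7 at 0.45 and E2F8 at 0.86 once length and GC were removed. E2F1, the classical activator (chromosome 20, 33675683 to 33686404, minus strand), held 7646, 7596 and 9447 in vector and 9186, 7799 and 7701 in LACTB cells, so that the means were nearly equal (8229.5 ± 1055 and 8229 ± 831; log2 difference 0.0027, SE 0.12, adjusted p = 0.986). With length and GC removed E2F1 passed at 0.44, adjusted p = 0.000532, and adjusted p over its alternatives ran from 0.000532 to 0.989. Per kb, E2F1 stood 26.1 to 36.7 times above E2F8 in the vector libraries and 14.9 to 18.9 times above it in the LACTB libraries. The activator E2F3 rose by 0.34 (adjusted p = 0.0475), but it was called in only 6 of 16 alternatives and did not hold without each of 5 libraries in turn, vector library 1 (0.25, adjusted p = 0.0924), vector library 3 (0.36, adjusted p = 0.0645), or LACTB library 1 (0.36, adjusted p = 0.0964), 2 (0.34, adjusted p = 0.137) or 3 (0.33, adjusted p = 0.151). E2F2, also an activator, had 0.29 (SE 0.12, adjusted p = 0.0577) and passed without vector library 3 (0.37, adjusted p = 0.0242), with equal totals and after removal of length and GC. Over the role, 8 of 16 tested G1 control genes rose, 3 fell and 5 did not pass, with a median of 0.33 (background 27.4% higher and 24.5% lower). The number called dropped from 11 to 7 without LACTB library 2 and to 7 without LACTB library 3. Over all 12942 tested genes the number called dropped too, from 6720 to 5344 and 5556.

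**Figure D2:**
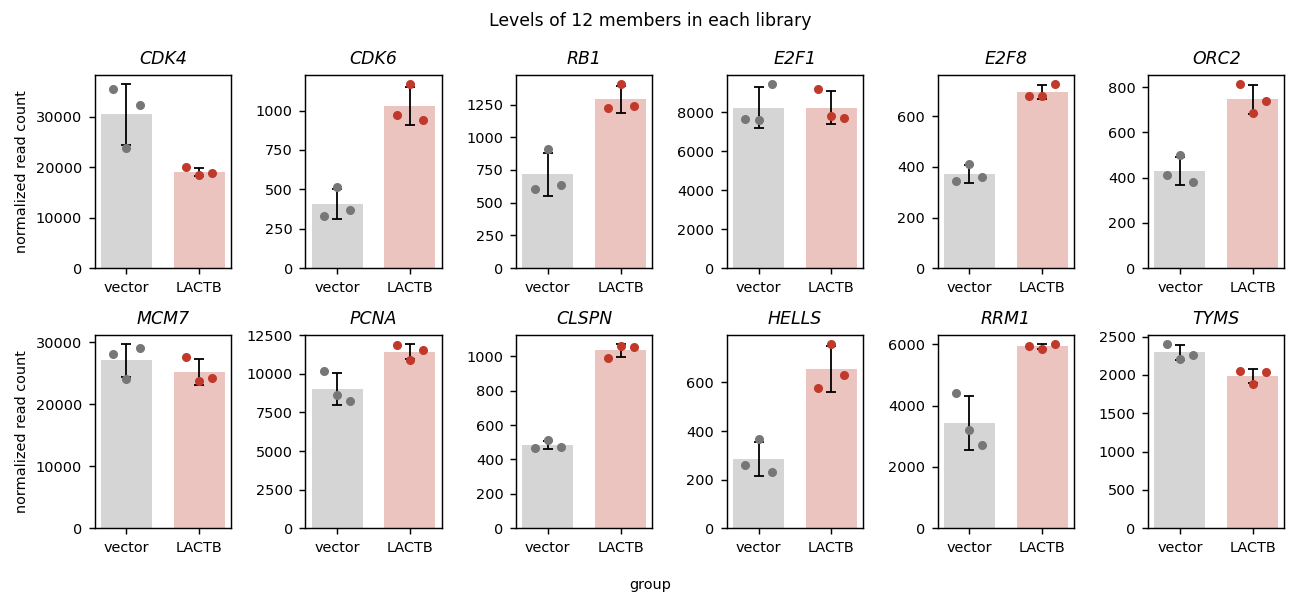
Bars give the mean normalized read count of 12 members in vector (grey) and LACTB (red) cells, error bars 1 SD over 3 libraries, and points the libraries, each panel on its own axis from 0. CDK6, RB1, E2F8, ORC2, CLSPN, HELLS and RRM1 lie higher in all 3 LACTB libraries and CDK4 lower, while the groups overlap for E2F1 and MCM7.

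Members' promoters held the E2F motif far more often than promoters at large, in risers as well as in uncalled members. E2F factors bind a motif of TTT, then 2 bases that are each C or G, then CGC. Its 4 forms (TTTCCCGC, TTTCGCGC, TTTGCCGC and TTTGGCGC) were searched on both strands from 250 bases before to 50 after the gene's start in RefSeq promoters on GRCh38.p14. Of the 59 members 51 were matched to that table, all but CCND1, CCND2, CCNE2, CDK2, E2F8, MCM4, MCM5 and GINS4. At least 1 match stood in 23 of the 51 (45.1%), against 3.27% of all 27305 promoters and 5.26% of the 9984 matched promoters of tested genes. By role it stood in 4 of 13 G1 control promoters, 8 of 15 of licensing and helicase, 10 of 18 of the fork and 1 of 5 of histone and nucleotide supply. Among members with a promoter it stood in 8 of 18 that rose, 0 of 2 that fell and 15 of 30 that did not pass. For each gene the window with the lowest coordinate was used, so it can lie inside the gene. The 2 that fell are CCND3 and CDK4, whose windows do, so their count does not describe the outermost annotated starts. The same limit holds for risers and uncalled members. The window of the riser RB1 begins at 48476280 and its gene at 48303726, and those of the uncalled GINS3 at 58392301 and 58295080. The TTTGAA motif of cell cycle genes homology regions stood in 3 of the 51 (5.88%), against 15.6% of all promoters and 9.87% of those of tested genes. These 3 are among the 18 risers. A match is a run of letters and not a measured binding site.

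The following stretches run from 170 bases before the gene's start through the first 20 transcribed bases and show where the motif lies in 3 members that rose and 2 that did not pass, with matches in capitals. The start is RefSeq's, which for HELLS lies inside the longer gene that GENCODE release 29 annotates. They lie at chr10:94545618-94545807, plus strand (HELLS), chr1:35769959-35770148, minus strand (CLSPN), chr20:37095978-37096167, minus strand (RBL1), chr20:33686366-33686555, minus strand (E2F1) and chr2:135876424-135876613, minus strand (MCM6), and are printed 5′ to 3′ on the gene's strand.
HELLS: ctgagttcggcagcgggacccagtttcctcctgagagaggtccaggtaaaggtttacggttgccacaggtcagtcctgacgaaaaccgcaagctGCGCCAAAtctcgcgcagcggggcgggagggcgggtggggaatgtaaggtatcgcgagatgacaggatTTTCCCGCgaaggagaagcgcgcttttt
CLSPN: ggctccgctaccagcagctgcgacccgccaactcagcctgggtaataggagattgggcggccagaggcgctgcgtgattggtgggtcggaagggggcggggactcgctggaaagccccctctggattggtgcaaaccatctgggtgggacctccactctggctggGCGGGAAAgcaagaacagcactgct
RBL1: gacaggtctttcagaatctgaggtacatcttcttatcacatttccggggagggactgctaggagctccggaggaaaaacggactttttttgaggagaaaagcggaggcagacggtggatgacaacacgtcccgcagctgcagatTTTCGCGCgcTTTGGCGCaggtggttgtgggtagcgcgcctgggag
E2F1: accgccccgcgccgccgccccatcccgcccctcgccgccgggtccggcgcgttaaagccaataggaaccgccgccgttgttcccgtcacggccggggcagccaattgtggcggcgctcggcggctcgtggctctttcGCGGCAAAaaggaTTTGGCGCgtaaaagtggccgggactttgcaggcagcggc
MCM6: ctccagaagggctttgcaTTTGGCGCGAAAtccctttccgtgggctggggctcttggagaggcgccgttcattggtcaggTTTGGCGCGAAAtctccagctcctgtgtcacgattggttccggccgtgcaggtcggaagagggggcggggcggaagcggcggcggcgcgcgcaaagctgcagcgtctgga
The match of CLSPN begins 5 bases before the start, those of HELLS 76 and 8 bases, those of RBL1 26 and 16 bases and those of E2F1 33 and 20 bases before it. MCM6 holds 4 matches in 2 overlapping pairs, which begin 152, 148, 90 and 86 bases before the start, and had a difference of 0.24 (adjusted p = 0.0807).

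Among genes of origin licensing and the helicase 2 of 18 rose, none fell and 16 did not pass, with a median of 0.20 on the values as deposited (background 27.4% higher and 24.5% lower). Other settings called more of them. After median centring 4 were called (3 lower), and with quantile normalization 9 (1 lower), against 52.8% and 50.3% of all tested genes. With equal totals 11 were called (0 lower), and after removal of length and GC 12 (2 lower), against 53.2% and 48.4% of all tested genes. ORC2, a core subunit of the origin recognition complex (chromosome 2, 200908973 to 200963680, minus strand), held 413, 501 and 381 in vector and 815, 688 and 739 in LACTB cells. No library overlapped and the call held in all 16 alternatives (log2 difference 0.80, SE 0.15, adjusted p = 0.000182), at 0.47 after removal of length and GC. GINS4 held 1004, 1193 and 1119 with vector and 1565, 1489.6 and 1406 with LACTB, again without overlap (log2 difference 0.43, SE 0.12, adjusted p = 0.00593), and just missed the threshold after median centring (0.30, adjusted p = 0.0519). ORC1, the ATPase subunit (chromosome 1, 52372829 to 52404459, minus strand), held 929, 1123 and 882 with vector and 1163, 1293 and 1103 with LACTB, where vector library 2 lay above the lowest LACTB library (log2 difference 0.28, SE 0.13, adjusted p = 0.0784). It passed without vector library 2 (0.39, adjusted p = 0.0246), with equal column totals (0.47, adjusted p = 0.013) and after removal of length and GC (0.45, adjusted p = 0.0117). ORC6 differed by -0.22 (SE 0.13, adjusted p = 0.156), and passed as lower after median centring (-0.35, adjusted p = 0.0287).

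The loading factors overlapped between groups. CDC6 (chromosome 17, 40287633 to 40304657, plus strand) held 3713, 2954 and 2683 in vector and 3851, 3196 and 3639.7 in LACTB cells (log2 difference 0.20, SE 0.13, adjusted p = 0.185), and passed without vector library 1 (0.34, adjusted p = 0.00919), with quantile normalization (0.31, adjusted p = 0.0394) and with equal totals (0.39, adjusted p = 0.0155). CDT1 (chromosome 16, 88803213 to 88809258, plus strand) held 3046, 3306 and 4142 with vector and 3777, 3242 and 3292 with LACTB (log2 difference -0.016, SE 0.12, adjusted p = 0.921). Its inhibitor geminin, GMNN (chromosome 6, 24774931 to 24786099, plus strand), held 709.8, 729.9 and 616 with vector and 862, 813 and 777 with LACTB, with all LACTB libraries above all vector libraries but no call (log2 difference 0.26, SE 0.14, adjusted p = 0.121). With length and GC removed both CDT1 (0.39, adjusted p = 0.00112) and GMNN (0.31, adjusted p = 0.0343) passed as higher, CDT1 with the sign turned. The ratio of CDT1 to GMNN per kb was 1.67, 1.76 and 2.62 in vector and 1.71, 1.55 and 1.65 in LACTB libraries, so the groups overlapped.

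None of the 6 subunits of the MCM2 to MCM7 helicase passed, with differences from -0.10 to 0.24 and adjusted p from 0.0807 to 0.723. MCM2 (chromosome 3, 127598223 to 127622436, plus strand) held 7754, 7975 and 8884 in vector and 8348, 7703 and 7698 in LACTB cells (log2 difference -0.050, SE 0.11, adjusted p = 0.723). MCM7 (chromosome 7, 100092728 to 100101940, minus strand), the most abundant subunit, held 28146, 24053 and 29084 with vector and 27619, 23750.2 and 24304 with LACTB (log2 difference -0.10, SE 0.12, adjusted p = 0.489). The spread between the 3 vector libraries of MCM7 was larger than the difference of the means. Some subunits crossed the threshold in other settings. MCM3, MCM4, MCM5 and MCM6 were called higher with equal column totals, at 0.40, 0.38, 0.41 and 0.43, and with quantile normalization, where MCM7 also passed with a turned sign (0.25, adjusted p = 0.0259). With length and GC removed MCM2 (0.20, adjusted p = 0.0241), MCM3 (0.39, adjusted p = 0.00105), MCM4 (0.19, adjusted p = 0.048) and MCM5 (0.36, adjusted p = 0.00143) passed as higher. Without vector library 1, MCM3 (0.22, adjusted p = 0.0352) and MCM6 (0.32, adjusted p = 0.00647) passed, without vector library 2 MCM4 did (0.25, adjusted p = 0.0415), and without vector library 3 MCM5 did (0.31, adjusted p = 0.0294). Leaving out vector library 1 or vector library 2 took the number of licensing and helicase genes called from 2 to 5. Over all 12942 tested genes 7340 and 6714 were called in these refits, against 6720 with every library.

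The order of MCM2 to MCM7 by level per kb was the same in both groups. MCM7 led at 8785 ± 867 in vector and 8179 ± 678 in LACTB cells, followed by MCM3 (2798 ± 78.5 and 3224 ± 60.0) and MCM5 (2592 ± 287 and 3013 ± 129.7), with MCM6 last (1272 ± 141 and 1499 ± 80.1). In vector cells MCM3 and MCM5, and likewise MCM4 (2268 ± 186) and MCM2 (2265 ± 165), did not differ beyond their spread. MCM7 shares exon bases with AP4M1 on the other strand, and MCM2 with TPRA1.

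Of the factors that activate the loaded helicase, GINS4 was the one called. Per kb, GINS2 was the highest (1571 ± 338 in vector, 1313 ± 104 in LACTB cells), then GINS1 (981 ± 97.2 and 877 ± 23.7), GINS4 (285 ± 24.6 and 384 ± 20.6) and GINS3 (218 ± 24.2 and 194 ± 13.5). The fitted differences were -0.16, -0.24 and -0.17 for GINS1, GINS2 and GINS3 (adjusted p of 0.251, 0.14 and 0.345) against the rise of GINS4. GINS1 and GINS3 passed as lower after removal of length and GC (-0.36, adjusted p = 0.00214, and -0.28, adjusted p = 0.0367), GINS1 and GINS2 after median centring (-0.29, adjusted p = 0.0475, and -0.37, adjusted p = 0.0301), GINS3 with quantile normalization (-0.34, adjusted p = 0.0458), and GINS2 without vector library 2 (-0.40, adjusted p = 0.0126). CDC45 differed by 0.12 (SE 0.11, adjusted p = 0.399) and the scaffold MCM10 by 0.25 (SE 0.13, adjusted p = 0.125). Both passed with equal totals, at 0.31 and 0.44, and CDC45 after removal of length and GC (0.41, adjusted p = 0.0012).

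**Figure D3:**
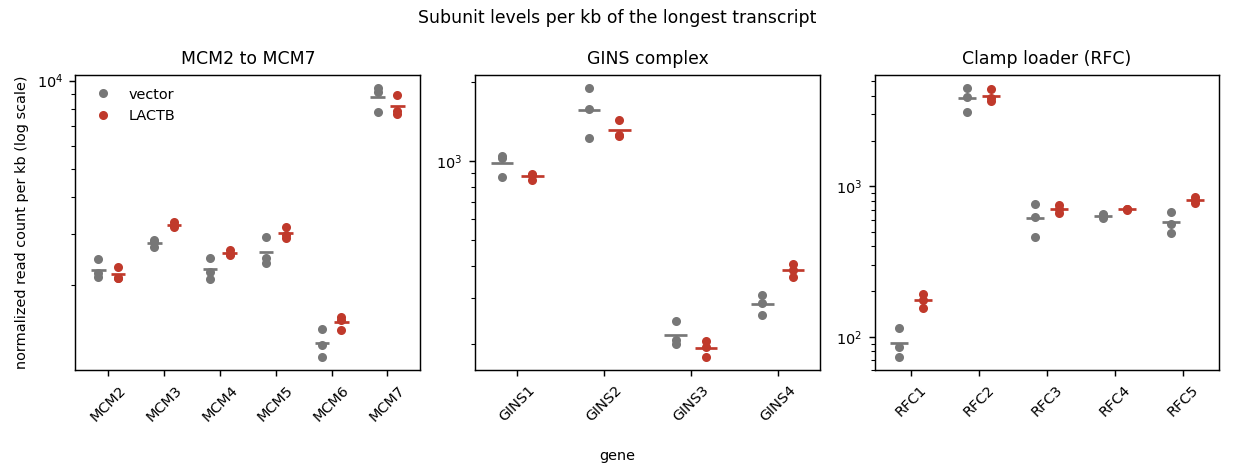
Points give each library's normalized read count per kb of the longest transcript on log axes, and short lines the mean of 3 libraries, for vector (grey) and LACTB (red) cells in 3 complexes. MCM7 and RFC2 stand above their partners in both groups, RFC1 lies lowest of the clamp loader, and GINS4 and RFC1 are higher in all 3 LACTB libraries.

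At the fork 9 of 18 genes rose, none fell and 9 did not pass, with a median of 0.25 (background 27.4% higher and 24.5% lower). The 2 members with the smallest adjusted p serve the checkpoint and chromatin at forks. CLSPN, the claspin adaptor that carries the ATR signal to CHEK1 (chromosome 1, 35720218 to 35769967, minus strand), held 469, 512 and 474 in vector and 989.5, 1059.6 and 1055 in LACTB cells. The 2 sets of libraries were tight and far apart, at a 2.13-fold higher mean (485 ± 23.5 to 1035 ± 39.2, SD, n = 3 each; log2 difference 1.09, SE 0.14, adjusted p = 1.05e-06). HELLS, a chromatin remodeller that supports DNA methylation (chromosome 10, 94501434 to 94613905, plus strand), held 259, 366 and 233 with vector and 577, 759.5 and 630.3 with LACTB, without overlap (log2 difference 1.21, SE 0.18, adjusted p = 1.03e-05). Both held in all 16 alternatives. TIPIN, a fork protection partner of claspin, rose by 0.65 (SE 0.20, adjusted p = 0.0111), but missed the threshold when vector library 3 (0.50, adjusted p = 0.0672) or LACTB library 3 (0.49, adjusted p = 0.101) was left out and with quantile normalization (adjusted p = 0.0637). DTL, the substrate receptor of the ligase that destroys CDT1 at forks, rose by 0.63 (SE 0.14, adjusted p = 0.00105) and was lost only after removal of length and GC (0.32, adjusted p = 0.0548) among the 16 alternatives. UHRF1, which recruits DNMT1, differed by 0.18 (SE 0.12, adjusted p = 0.196), and passed with equal totals, quantile normalization and length and GC removed, at 0.38, 0.31 and 0.31.

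The clamp and its loader were mixed. PCNA (chromosome 20, 5114953 to 5126626, minus strand) held 10174, 8612 and 8234 in vector and 11888, 10892 and 11558 in LACTB cells, all LACTB libraries above all vector libraries (log2 difference 0.35, SE 0.11, adjusted p = 0.0134). PCNA was not called after median centring (0.22, adjusted p = 0.159) and without vector library 3 (0.29, adjusted p = 0.0538), LACTB library 1 (0.32, adjusted p = 0.0662) or LACTB library 3 (0.34, adjusted p = 0.0617). RFC1, the large subunit that opens the clamp (chromosome 4, 39287456 to 39366375, minus strand), held 557, 418 and 359.7 with vector and 762, 935 and 863 with LACTB and rose 1.92-fold in mean (log2 difference 0.96, SE 0.16, adjusted p = 5.28e-05). Of the 4 small subunits RFC5 rose by 0.51 (SE 0.13, adjusted p = 0.00196), and RFC1 and RFC5 were called in all 16 alternatives, RFC1 at 0.62 after removal of length and GC. RFC2 (0.059, adjusted p = 0.721), RFC3 (0.22, adjusted p = 0.222) and RFC4 (0.14, adjusted p = 0.353) did not pass. RFC3 did without vector library 1 (0.39, adjusted p = 0.0141), and RFC2 (0.43, adjusted p = 0.00472) and RFC4 (0.27, adjusted p = 0.0297) after removal of length and GC. Per kb, RFC2 was the highest of the 5 subunits (3853 ± 696 in vector and 3981 ± 379 in LACTB cells) and RFC1 the lowest (91.1 ± 20.8 and 175 ± 17.8). RFC5 (575 ± 93.3) overlapped RFC3 (619 ± 152) and RFC4 (636 ± 19.4) in vector cells, and in LACTB cells its 3 values (813 ± 33.1) lay above those of RFC3 (705 ± 44.7) and RFC4 (702 ± 4.76).

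Of the 5 listed polymerase and primase genes, the catalytic subunits POLA1 and POLE rose. POLA1, of the primer-making polymerase alpha, rose by 1.00 (SE 0.19, adjusted p = 0.000201) from 283 ± 78.7 to 556 ± 86.1 and was called in all 16 alternatives, at 0.65 after removal of length and GC. Its partners POLA2 (0.074, adjusted p = 0.59) and the primase subunit PRIM1 (-0.032, adjusted p = 0.857) did not pass, and per kb both were more abundant than POLA1, at 1329 ± 95.9 and 533 ± 11.6 against 101 ± 15.7 in LACTB cells. POLE, of the leading-strand polymerase, rose by 0.29 (SE 0.12, adjusted p = 0.0421), but it was called in only 8 of 16 alternatives. POLE missed the threshold without vector library 1 (0.19, adjusted p = 0.0787), vector library 3 (0.31, adjusted p = 0.056) and LACTB libraries 1 (0.26, adjusted p = 0.144), 2 (0.28, adjusted p = 0.134) and 3 (0.32, adjusted p = 0.0834). POLD1, of the lagging-strand polymerase, differed by -0.0034 (SE 0.12, adjusted p = 0.983), the flap nuclease gene FEN1 by -0.15 (SE 0.12, adjusted p = 0.295) and the ligase gene LIG1 by 0.083 (SE 0.12, adjusted p = 0.578). POLD1 and LIG1 passed as higher after removal of length and GC, at 0.37 and 0.26. With that removal 14 of the 18 fork genes were called, all higher (background 48.4% called, 26.9% higher). Without vector library 3, and without LACTB library 3, the fork count was 6. In these refits 5730 and 5556 of all 12942 tested genes were called, against 6720 with every library.

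**Figure D4:**
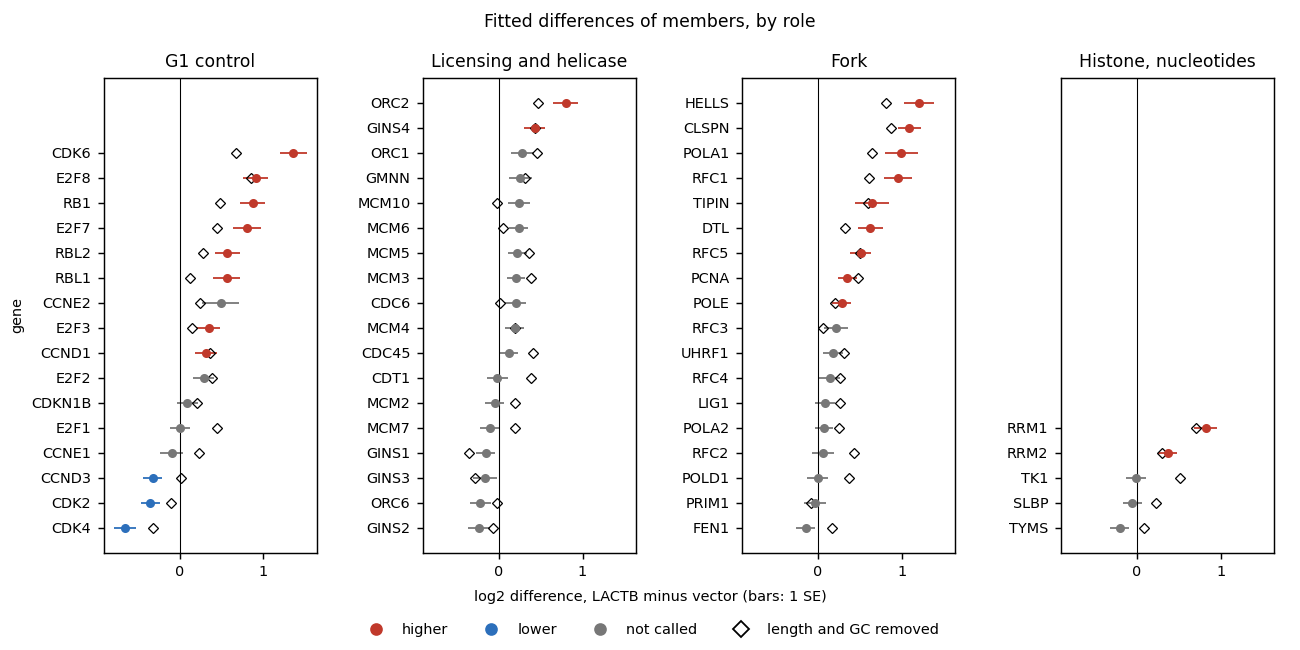
Filled points give the fitted log2 difference of each tested member (LACTB minus vector) with bars of 1 SE, coloured by call, and open diamonds the difference after transcript length and GC were removed, in 4 panels by role. The diamonds lie left of the points for CDK6, ORC2, RFC1 and POLA1 and right of them for CDK4, E2F1, CDT1, POLD1 and TK1.

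In nucleotide supply both subunits of ribonucleotide reductase, which makes deoxynucleotides, rose. RRM1 (chromosome 11, 4094707 to 4138876, plus strand) held 4403, 3189 and 2700.0 in vector and 5956, 5857 and 6010.4 in LACTB cells. The vector libraries were spread widely and the LACTB libraries tightly, without overlap, and the call held in all 16 alternatives (log2 difference 0.82, SE 0.14, adjusted p = 4.41e-05). RRM2 (chromosome 2, 10120698 to 10131419, plus strand), the subunit made in S phase, held 11615, 11835 and 11152 with vector and 16008, 14204 and 14426 with LACTB, also without overlap (log2 difference 0.37, SE 0.11, adjusted p = 0.00814), and lost its call after median centring (0.23, adjusted p = 0.127) and without LACTB library 1 (0.31, adjusted p = 0.0716). TYMS, thymidylate synthase (chromosome 18, 657604 to 673578, plus strand), held 2408, 2214 and 2261 with vector and 2049.8, 1887 and 2034 with LACTB, with every LACTB library below every vector library but no call (log2 difference -0.20, SE 0.11, adjusted p = 0.13), and was called lower after median centring (-0.34, adjusted p = 0.0225). TYMS shares exon bases with ENOSF1 on the other strand. TK1, cytosolic thymidine kinase (chromosome 17, 78174075 to 78187233, minus strand), held 19009, 17857 and 22359 with vector and 21544, 18398 and 18884 with LACTB, with overlapping groups (log2 difference -0.0067, SE 0.12, adjusted p = 0.967). TK1 passed as higher with quantile normalization (0.26, adjusted p = 0.0305) and after removal of length and GC (0.51, adjusted p = 0.000173). SLBP, which binds the stem-loop of histone mRNAs, differed by -0.057 (SE 0.11, adjusted p = 0.69), and by 0.23 after removal of length and GC (adjusted p = 0.0352). The role thus held 2 risers among 5 genes (background 27.4%), and 1 riser without LACTB library 1. Without that library 3056 of all 12942 tested genes were higher, against 3543 with every library.

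The members' differences followed transcript length and GC content, as those of all genes did. Across the 57 members, which share the 6 libraries and are not independent replicates, Spearman's rho of the difference was 0.60 with the longest transcript's length and -0.60 with its GC content, against 0.41 and -0.45 across 12722 tested genes with both values. The 21 risers had a median length of 4749 bases and 43.2% GC, the 3 fallers 2394 bases and 53.6%, and the 33 others 3157 bases and 50.7%. Once the trend over all genes was removed from each library, 35 members were higher and 3 lower (background 26.9% and 21.4%), and 17 of the 21 risers and 1 of the 3 fallers (CDK4) kept their call. Genes gained in that setting included E2F1, CDT1, TK1 and POLD1. In all, 11 of the 21 risers were called in each of the 16 refits, namely CDK6, RB1, E2F7, E2F8, ORC2, RFC1, RFC5, POLA1, CLSPN, HELLS and RRM1. Of the 59 members 24 share exon bases with a gene on the other strand and 10 have a pseudogene named after them in GENCODE release 29. Among the 24 called members these numbers were 13 and 6, and shares over all genes were not counted. Part of the reads of such members, called or not, could belong to another locus.

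**Figure D5:**
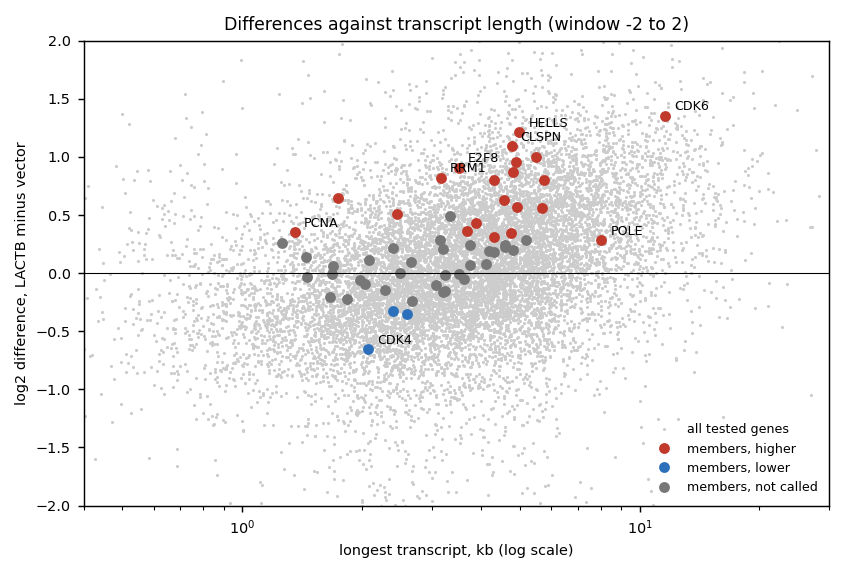
Each point is a gene placed by its longest transcript in kb (log axis) and its log2 difference, LACTB minus vector, with all tested genes in light grey and the members coloured by call; the axis shows -2 to 2 and leaves out genes beyond it. CDK6 is the longest riser and CDK4 one of the short fallers, while PCNA is among the short risers.

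Other genes of the same processes, from a list of 67 that are not members, were read in the same fit. Of the 66 found, 63 were tested, 26 were higher (41.3%, background 27.4%), 10 were lower (15.9%, background 24.5%) and the median was 0.26, against 0.046 over all tested genes. Without LACTB library 2, 17 were higher, and without vector library 3, 6 were lower. Over all 12942 tested genes 2809 were higher without LACTB library 2 and 2752 lower without vector library 3, against 3543 and 3177. After removal of length and GC 21 of the 63 were higher (33.3%, background 26.9%) and 8 lower (12.7%, background 21.4%). The median was then 0.12, against 0.065 over all genes in that setting. Those of licensing and origin firing rose in 9 of 14 cases (64.3%) with none lower (median 0.53). After removal of length and GC 6 of 14 were higher (42.9%, background 26.9%, median 0.25). With quantile normalization it was also 6 of 14 (background 24.8%). DBF4, the activator of the CDC7 kinase that fires origins, held 485, 441 and 384 in vector and 885, 802 and 887 in LACTB cells (log2 difference 0.98, SE 0.15, adjusted p = 1.13e-05). MCM8, of a separate MCM helicase used in recombination, held 1076, 1154 and 919.9 with vector and 1781, 1888 and 1703 with LACTB (log2 difference 0.77, SE 0.12, adjusted p = 2.71e-05). The count of 9 was 5 without LACTB library 2. Other fork genes rose in 9 of 23 cases (39.1%; 5 without LACTB library 1 or without LACTB library 3) and fell in 5 (3 without vector library 3). CHEK1, the checkpoint kinase that claspin serves, held 619, 505 and 416 with vector and 955, 849 and 854 with LACTB (log2 difference 0.80, SE 0.15, adjusted p = 0.000185), whereas POLD4, a small subunit of polymerase delta, held 2843, 2563 and 3002 with vector and 2113, 1925 and 1914 with LACTB (log2 difference -0.50, SE 0.11, adjusted p = 0.00102), a fall lost after removal of length and GC (-0.053, adjusted p = 0.563). Other nucleotide supply genes rose in 3 of 7 cases (42.9%) and fell in 1 (0 without vector library 3, LACTB library 1 or LACTB library 2), with RRM2B, the stress-induced small subunit of ribonucleotide reductase, higher by 0.82 (adjusted p = 0.000626) and the deoxycytidine kinase gene DCK higher by 0.52 (adjusted p = 0.00227). After removal of length and GC MCM8 was at 0.28, CHEK1 at 0.52, RRM2B at 0.42 and DCK at 0.34, each still called.

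Inhibitors and G1/S partners outside the list included 5 risers (26.3%) and 4 fallers (21.1%) among 19 tested (median -0.044), shares near the background, with 3 risers without vector library 3, LACTB library 1 or LACTB library 2. LIN54, a DNA-binding subunit of the DREAM complex that represses cell cycle genes with the pocket proteins, held 189, 201 and 201 with vector and 442, 558 and 495 with LACTB (log2 difference 1.33, SE 0.17, adjusted p = 1.69e-06). MYBL2, a partner of the same core in proliferating cells, held 16638, 15691 and 19458 with vector and 11911, 10658 and 10722 with LACTB and fell (log2 difference -0.63, SE 0.12, adjusted p = 0.000114). CCNA2, the cyclin of S phase that follows cyclin E, held 1465, 1587 and 1449 with vector and 2110.3, 2279.8 and 2302 with LACTB, without overlap (log2 difference 0.57, SE 0.11, adjusted p = 0.00027). After removal of length and GC LIN54 was at 0.86 and MYBL2 at -0.25, both still called.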

How the data were processed

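RNA of 3 vector and 3 LACTB-overexpressing LN229 libraries was extracted with Trizol and chloroform and made into libraries with an NEB kit, per the labels' protocols. HISAT2 and hg38 are named in the submitters' processing notes. For the read counter, annotation, strand setting and normalization, the method is not given in the sources used. The deposited table lists a signal for each gene in each library, namely a normalized read count with decimals. Read depth is unknown and no count model was used. At each library's best step among many tried, 36.2% to 61.3% of low values came out whole (within 0.05 of a whole number). Chance gives 10% for a step fixed beforehand. The level for a best step was not worked out, so these shares do not decide whether scaled whole counts lie behind the values. Values below 1e-10 were set to 0.

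A gene was tested if its mean reached 1 CPM of the mean column total (37.7 normalized counts). Values were tested as log2(value + 1) with limma 3.58.1 (trend and robust settings, two-sided, group as the only term) in R 4.3.3, with Benjamini-Hochberg adjustment over all tested genes and a threshold of 0.05. Differences on this scale understate changes of low genes. The test was checked on simulated data with independent values and few changed genes. These had no group difference in column totals or in length and GC trend, so the check does not cover those traits of the deposited values. Transcript lengths, GC and coordinates came from GENCODE release 29 on GRCh38 (94.9% of symbols matched) and promoters from RefSeq on GRCh38.p14, handled in Python 3.11.15. The 16 alternative fits changed the scaling, filter, pseudocount, limma settings, length and GC trend, replicate block or libraries used. Stricter thresholds were also read.

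The members and all gene lists were chosen with earlier results of these data known. Library values are given for the 3 members of each role with the smallest adjusted p and for a fixed set of further members. In each of the 4 lists of other pathway genes the 2 with the smallest adjusted p are named, beside LACTB, CDKN1A, CDKN2A, CCNA2 and MYBL2. PMEL is given because it overlaps CDK2, and the marker genes because they describe the cells. CDKN2B was not analysed here, and CDKN1C and RNASEH2A were too low to test. One listed marker is not reported here.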

Additional observations from a re-analysis of the deposited data

How the results depend on the processing

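Replicate numbers were not treated as pairs: deviations of same-numbered libraries correlated at 0.023, 0.18 and 0.0044, and not every library correlated best with its own number. With the replicate block 21 members were called higher and 3 lower, as without it. Scaling moved several counts. Median centring gave 7 members lower, 4 licensing and helicase members called, and 17 higher and 16 lower among the other pathway genes. Equal column totals gave 36 members higher and 1 lower, 11 licensing and helicase members, 5 other pathway genes lower and 1906 of all genes lower. Quantile normalization gave 7 G1 control and 9 licensing and helicase members, and turned MCM7 to 0.25 and TK1 to 0.26. With length and GC removed 35 members were higher, with 12 licensing and helicase, 14 fork and 4 histone and nucleotide supply members called. The differences of CCND3 (0.021), CDT1 (0.39), MCM2 (0.20), POLD1 (0.37), SLBP (0.23) and TK1 (0.51) then turned from negative to positive. CCND3 was called in the main fit and not after the removal, and the others were called after it and not in the main fit. Sign changes that passed neither test were not counted. At an adjusted p of 0.01, 1 member was lower, 7 G1 control members were called and 16 other pathway genes were higher. Of all 12942 tested genes 4953 were then called, 2597 higher and 2356 lower. A 2-fold minimum left 3 members higher and 0 lower, 1 G1 control, 0 licensing and helicase, 2 fork and 0 supply members, 1 other pathway gene higher and 0 lower, and 820 of all genes higher and 580 lower. Leaving out 1 library at a time gave 16 to 23 members higher and 1 to 4 lower. By role 7 to 11 G1 control, 2 to 5 licensing and helicase, 6 to 9 fork and 1 to 2 supply members were called. Among the other pathway genes 17 to 29 were higher and 6 to 11 lower. Of all 12942 tested genes these refits called 5344 to 7340, with 2809 to 3872 higher and 2535 to 3468 lower. A shorter motif (TT, then 2 bases each C or G, then CGC) stood in 64.7% of member promoters, 12.8% of all promoters and 20.2% of those of tested genes. Over all tested genes the share called in either direction was 52.8% after median centring, 53.2% with equal totals and 50.3% with quantile normalization. It was 48.4% with length and GC removed. The cause of the shifts between settings was not tested. Unknown depth means that no counting error could be given for any value.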
